A study of Mus musculus with 5 samples.

Results

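Aquaporins are membrane channels that pass water, and some of them, the aquaglyceroporins, also pass glycerol. Glycerol kinases phosphorylate glycerol, which lets it enter lipid synthesis or energy metabolism. The 7 genes described here are the aquaporin genes Aqp1, Aqp7, Aqp8, Aqp9 and Aqp11 and the testis glycerol kinase genes Gk2 and Gykl1. They were taken by gene name from a table of testis transcripts, which gave 11 of its 55350 transcripts, and each transcript was joined by its identifier to a table of chromatin immunoprecipitation (ChIP) scores. In male germ cells, aquaporins are known for the shedding of water and cytoplasm as spermatids become sperm. Gk2 and Gykl1 are intronless copies of the X-linked glycerol kinase gene and are known in the mouse for the ordering of mitochondria along the sperm tail.

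The tissue was testis of 3-month-old mice. RNA came from males lacking Taf7l (Taf7l-/Y), which encodes a testis paralogue of the TFIID subunit TAF7, and from wild-type males, as 1 library of polyadenylated RNA per genotype, each from a pool of 6 extracts. TAF7L and RNA polymerase II (Pol II) ChIP and a non-specific IgG control, 1 library each, are labelled wild type, although their shared protocol names knockout and wild-type chromatin; the labels give no strain and do not say which part of Taf7l was deleted. No group had a replicate library, so no test across samples was possible, and every difference below is described by its size only. Each value ± SD is the authors' mean and standard deviation of an expression signal. The header does not name the signal's unit, which lies on the scale of reads per length and depth (RPKM), and the SD was taken as the spread between portions of a library. Whether SD bands overlap therefore says nothing of the spread between animals, and the share of all genes without overlap was not counted. Change is the log2 ratio of knockout to wild type with 1 added to each signal. Genes whose signal averaged 1 or more over both libraries were compared, and a 2-fold difference counted as higher or lower.

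The targeted gene had a signal of 2.04 in the knockout library and 13.2 in the wild-type one, a log2 change of -2.22. The median change of all 12438 genes compared was 0.40, so changes are also given relative to that median. Per RNA library the labels state a depth of 100 to 200 M, where M stands for 1e+06 reads. A depth can be worked out if the signal is RPKM and the SD is counting error over 60 knockout and 64 wild-type parts. The 2 intronless kinase genes then point to 82.3 and 107 M in the knockout library and 126 and 147 M in the wild-type library. The numbers of parts were inferred from the largest SDs, so these depths are no independent check of the labels. Markers of late spermatids were abundant in both libraries, with Prm1, a protamine gene, at 2991 and 17005 in knockout and wild type. Crisp1, a gene of the epididymal duct, was at 75.9 in the knockout library and 0.042 in the wild-type library.

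The promoters of Gk2, Aqp11 and Aqp7 are shown because they differed in their TAF7L scores. Gk2 had the highest TAF7L promoter score of the 7 genes, Aqp11 had a lower one and Aqp7 had none, while Aqp11 and Aqp7 were both lower in the knockout library. The sequences are the 250 bases before the RefSeq start in the build GRCm38.p6, on the minus strand, at chr5:97457024-97457273 for Gk2, chr7:97738248-97738497 for Aqp11 and chr4:41048137-41048386 for the more upstream of the 2 Aqp7 starts. Capitals mark CG dinucleotides.
Gk2: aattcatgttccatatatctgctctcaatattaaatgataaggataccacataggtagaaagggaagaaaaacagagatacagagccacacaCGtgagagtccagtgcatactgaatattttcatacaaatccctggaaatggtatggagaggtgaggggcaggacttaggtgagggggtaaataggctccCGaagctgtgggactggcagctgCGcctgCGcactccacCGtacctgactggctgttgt
Aqp11: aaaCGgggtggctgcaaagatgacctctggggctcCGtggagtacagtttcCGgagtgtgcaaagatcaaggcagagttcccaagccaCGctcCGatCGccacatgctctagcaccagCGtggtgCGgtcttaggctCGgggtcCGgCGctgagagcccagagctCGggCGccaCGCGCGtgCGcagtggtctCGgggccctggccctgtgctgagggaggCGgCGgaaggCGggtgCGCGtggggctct
Aqp7: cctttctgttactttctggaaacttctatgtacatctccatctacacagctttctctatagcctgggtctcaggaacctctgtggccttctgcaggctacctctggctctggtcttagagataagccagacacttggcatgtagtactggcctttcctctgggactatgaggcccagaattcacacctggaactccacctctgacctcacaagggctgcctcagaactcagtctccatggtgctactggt
The windows held 5 CG dinucleotides for Gk2, 23 for Aqp11 and 0 for Aqp7, with 47.2%, 67.2% and 50.8% G and C. The window of the other Aqp7 start, not shown, had 56.0% G and C and 2 CG dinucleotides. The median was 6 over all 32851 RefSeq windows, 18 over windows of compared genes with a TAF7L promoter score and 12 over windows of those with a Pol II but no TAF7L promoter score. Gk2 thus had a TAF7L score with fewer CG dinucleotides than the median of either set. Of the 7 genes 6 matched this table; Gykl1 did not. Searched on both strands, the TATA box (TATAAA) was in none of these 3 windows and in 12.4% of all windows. The CCAAT box, by its letters, was likewise in none of the 3 and in 33.8% of all. The GC box (GGGCGG) was in none of the 3 and in 32.7% of all, and the core of the cAMP response element (TGACG) in none of the 3 and in 17.8% of all. Over windows of compared genes with a TAF7L promoter score, TATAAA was in 5.27%, CCAAT in 36.1%, GGGCGG in 61.0% and TGACG in 31.7%. Over those with a Pol II but no TAF7L promoter score, the shares were 7.14%, 35.2%, 53.2% and 21.1%.

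Among the aquaporins, Aqp7 and Aqp11 were lower in the knockout library by similar factors, whereas Aqp8 and Aqp9 were within 2-fold and Aqp1 was near the floor. Of the 7 genes 6 reached the mean signal of 1. Of these, 2 were at least 2-fold lower, beside 7.32% of all genes compared, and none was at least 2-fold higher, beside 7.36%. Their median change was -0.51, or -0.91 relative to all genes. With the knockout library rescaled to a median change of 0, 3 members were at least 2-fold lower, beside 13.0% of all genes, since Gykl1 joined the other two, and none was higher, beside 1.12%. In pooled whole-testis RNA, fewer cells of a type and less RNA per cell cannot be told apart.

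**Figure D1:**
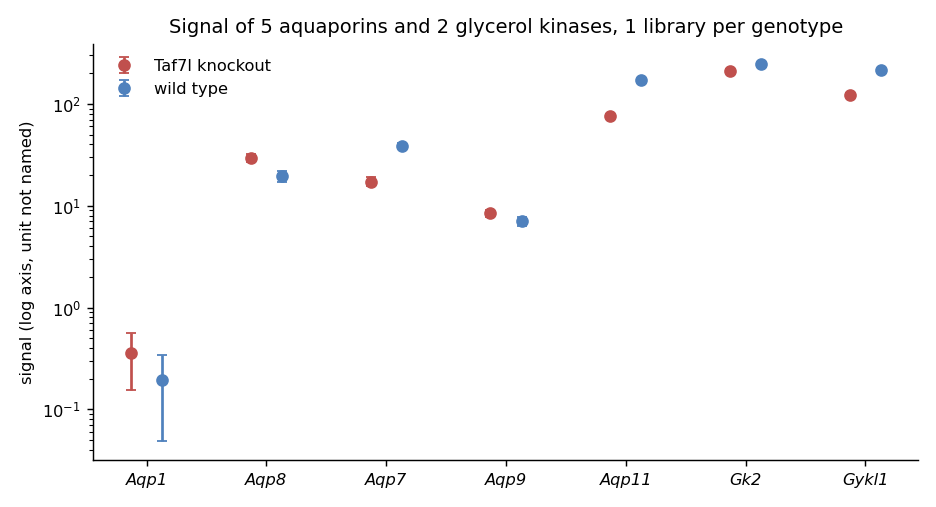
Signal of the 7 genes (log axis) in the Taf7l knockout and wild-type libraries, using the transcript with the highest mean for each gene; bars are the authors' SD. Aqp7, Aqp11 and Gykl1 lie lower in the knockout library, at 17.2, 76.1 and 122, than in the wild-type library, at 39.0, 171 and 214.

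Aqp7 encodes an aquaglyceroporin of fat cells and of spermatids and sperm. Its longer transcript (uc008sig.1; chromosome 4, 40980106 to 40995169, mm9) reached 17.2 ± 1.78 in the knockout library and 39.0 ± 2.20 in the wild-type library. The shorter transcript (uc008sif.1), whose start lies 2688 bp downstream, had 12.4 ± 1.74 and 28.6 ± 1.85 in knockout and wild type. The knockout signal was thus lower for both, by 55.8% and 56.8%. The SD bands of the libraries did not overlap, but they were taken as spread within a library only. The change of the longer transcript was -1.13, or -1.54 relative to the median, and 5.92% of all genes compared had a lower one.

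Aqp11 encodes an aquaporin with an unusual pore motif that resides in the endoplasmic reticulum. It was the most abundant aquaporin gene in both libraries. Its first transcript (uc009ijs.1; chromosome 7, 104874888 to 104886757, mm9) reached 76.1 ± 3.67 in the knockout library and 171 ± 6.00 in the wild-type library. The second (uc009ijt.1), with the same span, had 76.3 ± 3.77 in knockout and 171 ± 5.74 in wild type. The change of the first was -1.16, or -1.56 relative to the median. The ratio of Aqp11 to Aqp7 was 4.42 in the knockout library and 4.39 in the wild-type library, so their proportion was nearly the same in both.

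Aqp8 encodes a water channel that in the testis is known from germ cells and from Sertoli cells, the somatic cells of the tubule wall. Its only transcript (uc012ftk.1; chromosome 7, 130605807 to 130611517, mm9) reached 29.6 ± 2.90 in the knockout library and 19.5 ± 2.40 in the wild-type library. The SD bands, taken as spread within a library only, did not overlap. The change was 0.57, within 2-fold, and 0.17 relative to the median, with an SD over parts of 0.22 for the change.

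Aqp9 encodes an aquaglyceroporin of liver and the epididymal duct. Its 3 transcripts had signals of 7.26 to 8.41 in the knockout library and 6.10 to 7.02 in the wild-type library. The one with the highest signal (uc009qov.1; chromosome 9, 70958467 to 71011096, mm9) had 8.41 ± 0.68 in knockout and 7.02 ± 0.77 in wild type, with overlapping SD bands. Its change of 0.23 became -0.17 relative to the median, so its direction depended on the scaling. A transcript named only by a cDNA clone, AK006167, lay 185 bp beyond the upstream end of Aqp9 and had 23.4 ± 8.50 in knockout and 19.7 ± 5.84 in wild type. AK006167 was not counted as an Aqp9 transcript here, and whether it belongs to Aqp9 was not tested.

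Aqp1 encodes the water channel of red blood cells, endothelium and efferent ducts. It had a signal of 0.361 ± 0.207 in the knockout library and 0.195 ± 0.146 in the wild-type library (uc009caq.1; chromosome 6, 55286292 to 55298549, mm9). Its SD bands overlapped, and it did not reach the mean of 1.

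The testis glycerol kinases were among the more abundant transcripts and differed in their change. Gk2 (uc008yfz.1; chromosome 5, 97884179 to 97886027, mm9) reached 210.0 ± 7.97 in the knockout library and 244 ± 8.20 in the wild-type library. It was 14.0% lower in the knockout library, a change of -0.22, or -0.62 relative to the median. Its SD bands did not overlap even at this small difference, so a lack of overlap marks no large change. Gykl1 (uc008exl.1; chromosome 18, 52853343 to 52855247, mm9) had 122 ± 6.84 in knockout and 214 ± 7.0 in wild type. It was 42.8% lower, a change of -0.80, or -1.20 relative to the median, so that it was past 2-fold only on the rescaled scale. The ratio of Gk2 to Gykl1 was 1.72 in the knockout library and 1.14 in the wild-type library. In both libraries these 2 genes were in the uppermost 5.07% of all genes compared, and Gk2 ranked above Gykl1.

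**Figure D2:**
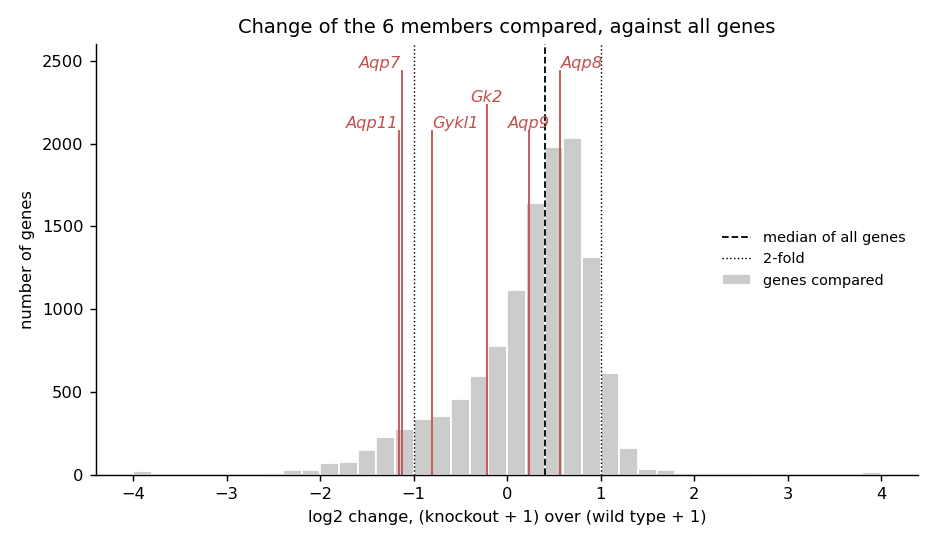
Histogram of the log2 change (knockout over wild type, 1 added to each signal) of the 12438 genes compared, with the 6 members that reached the mean of 1 as vertical lines; the outermost bins also hold more extreme values. Aqp11 and Aqp7, at -1.16 and -1.13, lie beyond the lower 2-fold line, and Aqp8, at 0.57, lies nearest above the median of 0.40.

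In the order of levels Gk2 stood first in both libraries. Gykl1 and then Aqp11 came next, followed in the knockout library by Aqp8, Aqp7, Aqp9 and Aqp1 and in the wild-type library by Aqp7, Aqp8, Aqp9 and Aqp1. Aqp8 and Aqp7 were thus the only pair of the 7 in a different order, and no neighbours from Gk2 to Aqp1 had overlapping SD bands in either library. The genes with the most similar pair of signals, by Euclidean distance in log2(signal + 1) over only 2 libraries, were Cdyl and Pmis2 for Aqp7, at 0.00659 and 0.0113, and Stpg4 and Jpt1 for Gk2, at 0.00446 and 0.0742. For Aqp11 they were 1700049L16Rik and Pfn3, at 0.0149 and 0.0451, and for Gykl1 they were 1700016K19Rik and Dnajb13, at 0.0615 and 0.0757. For Aqp8 they were Npepps and Ube2v1, at 0.00298 and 0.0178, and for Aqp9 they were Zfp991 and Aurkc, at 0.0157 and 0.0206.

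TAF7L was assigned to the promoters of Gk2 and Aqp11 alone among the members. These were 2 of the 6 members compared, beside 55.1% of all genes compared, and 5 of the 6 had a Pol II promoter score, beside 86.7%. The authors' headers do not define the scores; 0 was read as no assigned signal, and no score of the IgG library was used here. Gk2 had a TAF7L promoter score of 100.0, above 78.7% of scored genes, and a Pol II promoter score of 649, above 80.4%. It had a score of 0 in the proximal and distal classes for both factors. Aqp11 had promoter scores of 51.4 for TAF7L and 200.0 for Pol II, below the medians of 71.7 and 374 over scored genes, and proximal scores of 37.3 and 41.0.

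The other members had Pol II without TAF7L at the promoter, or neither. The longer Aqp7 transcript had a Pol II promoter score of 282, and the shorter one had the same 282 in the proximal class, as the same signal assigned to both would give. Gykl1 had a Pol II promoter score of 186 and Aqp8 one of 52.7, above only 1.72% of scored genes. All 3 Aqp9 transcripts had a Pol II score of 214 in the proximal class and 0 at the promoter, and AK006167 had the same 214 in its proximal class. Aqp1 had 0 in every class for both factors.

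Several distal scores equalled the promoter scores of a neighbouring gene. Distances given here run between the nearer gene ends, which need not be where the scored promoter lies. Aqp11 had distal scores of 71.7 for TAF7L and 521 for Pol II, which were the promoter scores of Clns1a, whose nearer end is 7499 bp away, and also of OTTMUSG00000024510, at 29757 bp. The distal scores of Clns1a were the promoter scores of Aqp11. Clns1a itself had a signal of 44.0 in the knockout library and 27.8 in the wild-type library, whereas Aqp11 was lower in the knockout library. Aqp8 had distal scores of 55.9 and 323, which were the promoter scores of Zkscan2, and a signal well above that of Zkscan2, at 1.57 and 1.21 in knockout and wild type. Gykl1 had a distal Pol II score of 137, which was the promoter score of 1700034E13Rik, whose nearer end is 29958 bp away; that gene had 43.6 in the knockout library and 203 in the wild-type library.

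**Figure D3:**
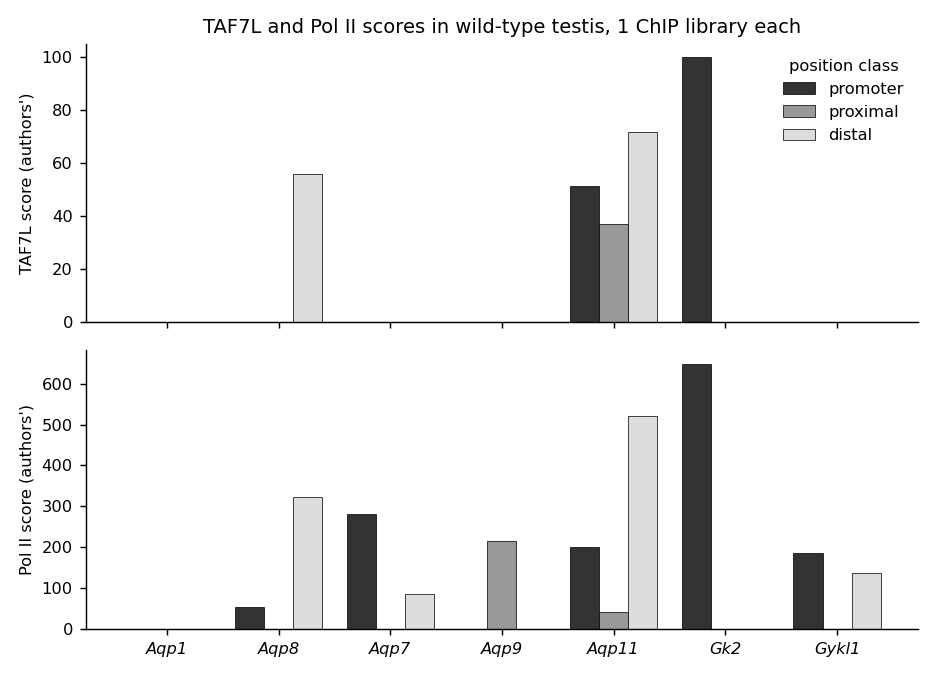
Authors' TAF7L scores (upper panel) and Pol II scores (lower panel) in the promoter, proximal and distal classes for the transcript with the highest mean of each of the 7 genes, from 1 ChIP library each. Bars for TAF7L at the promoter stand at Gk2, at 100.0, and Aqp11, at 51.4, while Pol II at the promoter stands at Aqp8, Aqp7, Aqp11, Gk2 and Gykl1.

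Only 2 of the members compared had a TAF7L promoter score, too few to set their changes against those of the others, so a link was not tested. Aqp11 with TAF7L and Aqp7 without it had changes of -1.16 and -1.13, and Gk2, with the highest score, had -0.22. Over all genes compared, 3.15% of the 6849 with a TAF7L promoter score were at least 2-fold lower and 5.17% at least 2-fold higher. Of the 3957 genes with a Pol II but no TAF7L promoter score, 11.4% were lower and 10.1% higher. The median change was 0.43 with a TAF7L promoter score and 0.45 with only a Pol II one.

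Of the remaining aquaporin genes, Aqp2, the vasopressin-regulated water channel of the kidney collecting duct, was higher in the knockout library. It had a signal of 17.1 ± 2.74 in knockout and 3.89 ± 1.06 in wild type (chromosome 15, 99409486 to 99414976, mm9), a change of 1.89, or 1.49 relative to the median. It was the only gene of this group of 7 to reach the mean of 1. Aqp5, a water channel of glands that begins 6482 bp further along chromosome 15, had 1.31 ± 0.46 in knockout and 0.209 ± 0.182 in wild type. Aqp6, 6570 bp beyond it, had 0.009 and 0.006, and none of these 3 genes had a promoter score for TAF7L or Pol II. Aqp3, on chromosome 4 like Aqp7, had 0.603 and 0.824. Aqp4, Aqp12 and Mip, the aquaporin gene of the lens, were at or below 0.144 in both libraries. Aqp11 made up 50.4% of the summed aquaporin signal in the knockout library and 70.7% in the wild-type library, whereas Aqp2 made up 11.4% and 1.61%.

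Several markers of the epididymal duct were higher in the knockout library, as was Aqp2. Of 19 genes listed for the epididymal and efferent ducts 8 reached the mean of 1. Of these, 7 were at least 2-fold higher, beside 7.36% of all genes compared. Crisp1, Adam7, Defb2, Spink8, Wfdc15b and Npy reached that mean only through their knockout signal, so their calls follow in part from that filter. Rnase10 was within 2-fold, and Gpx5, Lcn8 and Lcn9 were at or below 0.132 in both libraries. The summed signal over all 19 was 336 in knockout and 5.98 in wild type. Crisp1 changed most, and Cd52 was the most abundant, at 160 and 3.17 in knockout and wild type. Lcn10 was at 0 in both libraries, and Lcn5 and Defb2 were at 0 in the wild type, where Defb2 had 23.7 in the knockout library. Within this list the efferent duct genes Pax2, Slc9a3, Lrp2 and Esr1 stayed below 0.5 in both libraries and were not compared. The part of these cells in the Aqp2, Aqp5 and Aqp9 values was not tested.

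Late spermatid genes and most round spermatid genes listed were lower in the knockout library, as were Aqp7, Aqp11, Gykl1 and, by less, Gk2. All 12 late spermatid genes were past 2-fold on the lower side in the knockout library, beside 7.32% of all genes compared. Their median change was -2.43, with a summed signal of 12241 in knockout and 68169 in wild type. Prm2 had the lowest change, at -2.86, and Akap4, a gene of the fibrous sheath of the tail, the least low, at -2.07. Of 11 round spermatid and acrosome genes 6 were lower by 2-fold or more, and 7 after rescaling, beside 7.32% and, rescaled, 13.0% of all genes. Their median was -1.03, and they had summed signals of 675 and 1343 in knockout and wild type. Tssk2 and Spag6 marked the ends of this list, at -1.43 and 0.32. The changes of Aqp7 and Aqp11 were within the range of the round spermatid list, but so were those of Gk2, Gykl1 and Aqp9. All of these were less negative than every late spermatid gene listed. The part of spermatid number in these values was not tested.

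Lists of the other cell types were nearer the median of all genes. Among 10 spermatocyte genes, 2 were higher by 2-fold or more and 1 was lower, beside 7.36% and 7.32% of all genes compared. After rescaling 0 were higher and 1 was lower, beside 1.12% and 13.0%. Their median was 0.76, with summed signals of 3312 and 3759 in knockout and wild type. Ldhc was their most abundant gene, at 2307 and 2666, and Hormad1 and Pgk2 had the largest changes, at 1.07 and -1.15. Among 11 Sertoli genes measured, 3 were higher by 2-fold or more, and 1 was after rescaling, beside 7.36% and, rescaled, 1.12% of all genes compared. None was lower on either scale, and their median of 0.89 was above the 0.57 of Aqp8, with summed signals of 1781 and 938. Clu was the most abundant of them, at 1076 and 564, and Drd4 had the largest change, at 1.85. Among 10 Leydig genes, 3 were higher and 1 was lower, beside 7.36% and 7.32% of all genes. After rescaling 1 was higher and 3 were lower, beside 1.12% and 13.0%, so the balance depended on the scaling. Their median was 0.64, with summed signals of 1671 and 2250. Insl3 was the most abundant, at 1052 and 1686, and Cyp11a1 and Ptgds had the largest changes, at 1.89 and -2.31. Of 13 endothelial and blood genes 11 were in the table and 6 reached the mean of 1. Of the 6, 2 were higher on both scales, beside 7.36% and, rescaled, 1.12% of all genes. Both were globin genes whose near-identical copies can share reads, at 71.6 and 44.7 in knockout and 25.5 and 13.8 in wild type. Alas2, another blood gene listed, went the other way within 2-fold, at 3.76 in knockout and 4.92 in wild type, a change of -0.31. The summed signals of the 11 were 129 and 52.9, and Vwf had the lowest change, at -0.44. Of 8 adipocyte genes 4 reached the mean of 1, and none was past 2-fold with 1 added to each signal. Without it, Fabp4 and Cidea were higher by factors of 2.68 and 2.06 and Adipoq lower by 2.19. After rescaling 1 was lower, beside 13.0% of all genes. The summed signals were 22.3 and 18.5, and Cidea and Adipoq had the largest changes, at 0.94 and -0.96. The part of these cells in the members' values was not tested.

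**Figure D4:**
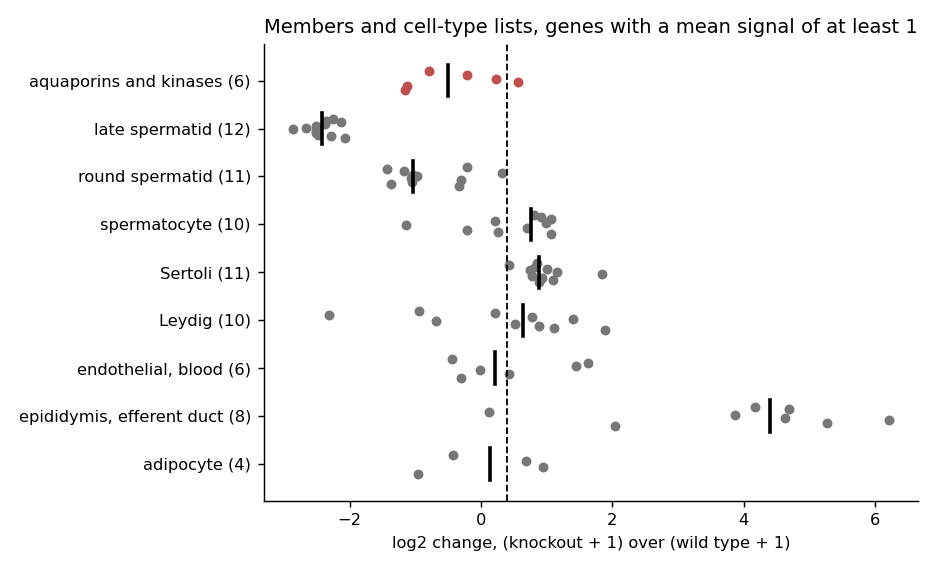
Log2 change (knockout over wild type, 1 added to each signal) of the members and of genes listed for each cell type, for genes that averaged 1 or more; the number compared is in brackets, black bars are medians and the dashed line is the median of all genes, 0.40. The members spread between -1.16 and 0.57, late spermatid genes all lie below -2, and 7 epididymal genes lie above 2.

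Other genes of glycerol metabolism were mixed, with 5 lower and 1 higher of the 21 that reached the mean of 1 among 26 listed, beside 7.32% lower and 7.36% higher of all genes. After rescaling 7 were lower and none higher, beside 13.0% and 1.12% of all genes. Their median change was -0.40, or -0.80 relative to all genes. Gpd2, the mitochondrial glycerol 3-phosphate dehydrogenase that oxidises the product of glycerol kinase, had a signal of 16.9 ± 0.97 in the knockout library and 52.2 ± 1.32 in the wild-type library. The cytosolic enzyme Gpd1, by contrast, had 12.0 ± 0.96 and 5.62 ± 0.74 in knockout and wild type, a change of 0.97. Both had a TAF7L promoter score of 0, whereas 17 of the 21 genes had one above 0, beside 55.1% of all genes compared. Of the 5 lower genes, Agpat6, Agpat2 and Lipe had such a score and Gpd2 and Agpat9 did not.

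Genes for the acylation of glycerol 3-phosphate differed among themselves. Agpat6, which encodes an acyltransferase of the endoplasmic reticulum, had 170 ± 13.0 in the knockout library and 480.0 ± 22.3 in the wild-type library, a change of -1.49. Agpat2, of the next step, had 12.5 and 40.2, and Agpat9 had 1.04 and 3.18, changes of -1.61 and -1.03. The mitochondrial Gpat2 and Gpam were in the opposite direction, with changes of 0.89 and 0.71, within 2-fold. Without the added 1, Gpam was higher by a factor of 2.08.

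In lipolysis, which releases glycerol from fat, Lipe, the hormone-sensitive lipase gene, had 10.9 ± 0.90 in the knockout library and 33.7 ± 1.44 in the wild-type library, a change of -1.54. Mgll, the monoglyceride lipase gene, had 21.2 ± 2.65 and 10.1 ± 1.40 in knockout and wild type and lay just past the 2-fold line, at 1.00. Pnpla2, which starts lipolysis, had 27.5 and 26.7. Pgp, a phosphatase that can release glycerol from glycerol 3-phosphate, was the most abundant gene of the list, at 629 in knockout and 924 in wild type. The ubiquitous kinase gene Gyk on the X chromosome had 0.356 and 0.298, and Gk5, a further kinase gene, 1.23 and 0.566, so Gk2 and Gykl1 made up 99.5% of the summed glycerol kinase signal in the knockout library and 99.8% in the wild-type library.

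**Figure D5:**
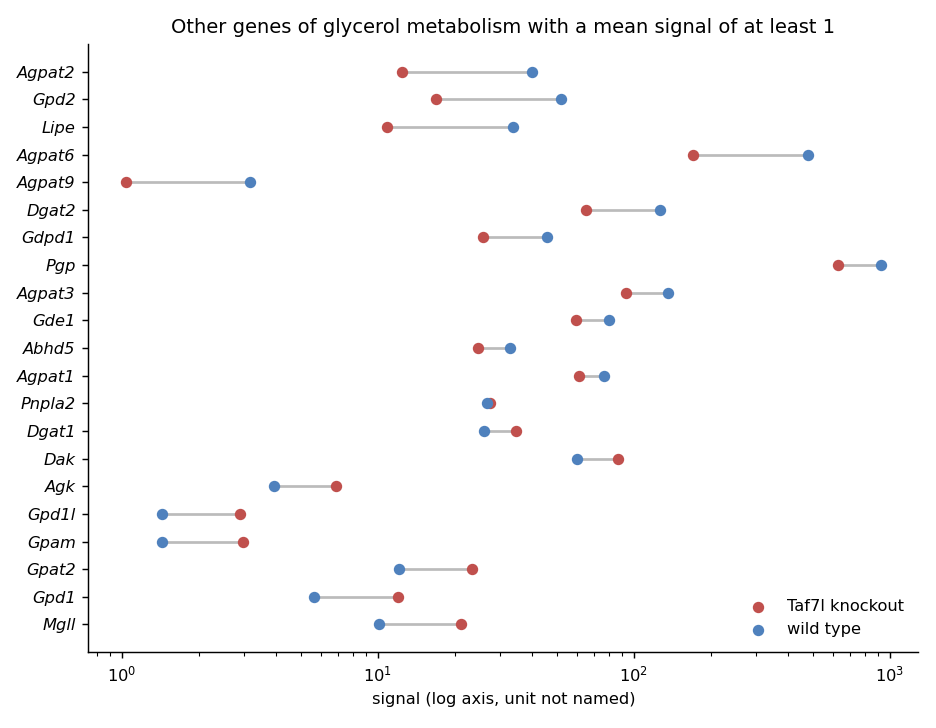
Signal (log axis) in the Taf7l knockout and wild-type libraries of the 21 other glycerol metabolism genes with a mean of at least 1, ordered from the lowest change at the top to the highest at the bottom. Agpat2, Gpd2 and Lipe, at the top, were lower in the knockout library, and Gpd1 and Mgll, at the bottom, were higher in signal there.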

How the data were processed

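RNA of knockout and wild-type testis and TAF7L, Pol II and IgG ChIP of testis were measured in 5 libraries. Per the submitters' processing notes, reads were handled with Bowtie, in the RNA libraries also with TopHat and Cufflinks, on the build mm9. No version, annotation or peak caller is named there. Per the file headers, the deposited expression table holds a mean and SD of a signal per transcript, the authors' log2 of wild type over knockout and their ratio of SD to mean, neither of which was used in the results. Among transcripts with a signal of at least 1, the largest SD was 7.75 means in the knockout and 8.00 means in the wild type, which 60 and 64 parts with a single filled part would give. The deposited binding table of 55419 transcripts holds the authors' scores.

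Names were matched to RefSeq symbols and older names of GRCm38.p6, which gave 21733 genes from 47044 transcripts; 8306 transcripts had no match. The transcript with the highest mean stood for a gene, and a gene had a promoter score if any transcript did. The 7 members and all gene lists were chosen with earlier results of these data known. Genes named were all members, the 2 nearest genes in signal of each, aquaporin and glycerol metabolism genes past 2-fold, the most abundant of these lists, and the most abundant and the most changed in each direction of each cell-type list, with a few of the last not printed; AK006167, the genes with equal scores and some listed genes near the members were chosen after their values were seen. Stranded counting is not stated, so overlapping transcripts, such as 3 low ones over Gk2, could not be separated, and reads of the related kinase copies may be shared. Fold calls were tested on simulated data, with planted changes well past 2-fold and little noise. That check of the code says nothing of calls near 2-fold or of the spread between animals. Python 3.11 was used. Pseudocount, minimum signal, rescaling, summing of transcripts and score definitions were varied.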

Additional observations from a re-analysis of the deposited data

How the results depend on the processing

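Across the 6 alternatives for the expression comparison, Aqp7, Aqp11, Gykl1 and Gk2 stayed negative and Aqp8 positive, while Aqp9 ranged from -0.17 to 0.26 and was negative only after rescaling. With the pseudocounts of 0.1 and 0, genes at least 2-fold higher numbered 2038 and 2224 among all genes and 3 and 4 among glycerol metabolism genes. Without a minimum, the members' median was -0.22, since Aqp1 entered. Rescaling gave a members' median of -0.91, with 1611 genes lower and 139 higher in all, and 0 glycerol metabolism genes higher. With only scores of at least the median of scored genes, 1 member had TAF7L and 1 had Pol II at the promoter. No other count moved by more than 1.5 times. No paired analysis was possible because each group had 1 library, and for the same reason no library could be left out. The depth of the ChIP libraries is unknown, and signals near the floor, such as those of Aqp1 and Gyk, limit what can be said of them.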
